A study of Mus musculus with 22 samples.

Results

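PAPP-A, encoded by Pappa, is the protease whose mRNA the study followed up, and its transcript was examined here together with the other genes of the IGF and insulin axis. The members are the ac4C peaks whose gene name is Pappa, Pappa2, a numbered Igfbp gene, Igf2, Igf1r, Igf2r, Stc1, Stc2, Insr, Irs1, Irs2 or Irs4. They were 30 peaks of the 9857 in the deposited table. Of the 18 genes followed by role, 9 had a peak, namely Pappa, Igfbp4, Igfbp5, Igfbp6, Igfbp7, Igf2, Insr, Igf2r and Irs1. Pappa2, Stc1, Stc2, Igfbp1, Igfbp2, Igfbp3, Igf1r, Irs2 and Irs4 were not analysed here.

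The kidneys came from 6 db/db mice and 5 db/m mice, and each of the 11 animals gave an IP library and an RNA-seq library. The db/db mouse lacks the long, signalling form of the leptin receptor and becomes obese and diabetic, and the db/m mouse carries 1 copy of the mutation and served as the nondiabetic control. The methods describe male mice. No treatment of these kidneys is labelled, and the age at collection was not given in the sources used here. N4-acetylcytidine (ac4C) is an acetylated cytidine of RNA written by the acetyltransferase NAT10. In acRIP-seq, fragments of mRNA are pulled down with an ac4C antibody and sequenced (IP), beside fragments that skipped the antibody (RNA-seq). Reads in peaks numbered 7577171 to 9862426 for IP of db/db mice, 9125099 to 10293757 for IP of db/m mice, and 3151035 to 3352535 in the RNA-seq libraries. The labels give the tissue as kidney and name no sorted cell type, and in such bulk samples fewer cells of a type and less RNA per cell cannot be told apart.

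IGF1 and IGF2 are growth factors that circulate and act locally while held by IGF binding proteins (IGFBPs). PAPP-A is a secreted metalloprotease that cuts IGFBP4 and IGFBP5 and thereby frees IGF for its receptor, and stanniocalcins hold PAPP-A in check. The insulin receptor, encoded by Insr, and the IGF1 receptor pass the signal to insulin receptor substrates such as IRS1, whereas the IGF2 receptor takes IGF2 into lysosomes. In the kidney the axis bears on filtration, tubular growth and glucose output by the proximal tubule.

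The acetylated base is a cytidine, so the sequence near the transcript start is shown for the 3 genes that had a peak there. Each line holds transcript bases 21 to 50 counted from the RefSeq start in the assembly GRCm38.p6, written 5′ to 3′ on the minus strand. Capitals mark bases inside the peak of the db/m list.
Igfbp7: CCAGCCACCTTATGATGGAGCGGCCGCCGC
Igf2: TACGCTTTCTGTTTCTCTCCGTGCTGTCCT
Igf2r: agcgcctcctcgtcgcactcccCCCTGGCT
The Igfbp7 stretch lies at chr5:77407996-77408025 and holds 12 cytidines in 30 bases. The Igf2 stretch lies at chr7:142658755-142658784 and holds 10, and its peak lies 8020 bases after the 5′ end of the gene, at an internal transcript start. The Igf2r stretch lies at chr17:12769657-12769686 and holds 16, of which only its last 8 bases lie in the peak. Over 32851 transcript starts the median of the same stretch was 8 cytidines. At least as many as in Igfbp7 were found in 13.7% of starts, as many as in Igf2 in 30.2%, and as many as in Igf2r in 1.85%. The cytidine count is a description of the letters and does not place an acetylated base. No sequence of the Pappa peaks was used here.

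The 30 peaks differed widely in how many reads they held. Peaks were called once for each genotype, with 13 of the members from db/db mice and 17 from db/m mice, and joining overlapping peaks of a gene left 20 regions. A peak of 1 list alone entered through that genotype, so its IP test between the genotypes depends on the call. Such peaks include both Pappa peaks (db/db list) and those of Igfbp6 and Irs1 (db/m list). In 18 peaks the mean was at least 10 reads in both library types, and these lay in 5 genes, Igfbp4, Igfbp5, Igfbp7, Insr and Igf2r. The other 12 peaks held at most 279 reads each over all 22 libraries, whereas the sparsest of the 18 held 2127. The larger Pappa peak was the one with 279 reads, which exceeded 27.3% of all peaks in the table, whose median was 3198 reads. The best read peak of Insr exceeded 49.6% of all peaks and that of Igfbp4 99.2%. In the deposited table, 4 member peaks had a peak caller's FDR over 0.05, which were the smaller Pappa peak (0.138), the Igfbp6 peak (0.573) and a pair of sparse Igfbp4 peaks (0.0550 and 0.0955).

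Levels were compared between genes as reads per 1000000 TMM-scaled reads in peaks (CPM) per kilobase of peak length, over all 11 animals. In RNA-seq the best read peak of Igfbp7 stood highest at 3478 ± 420 (SD, n = 11), followed by Igfbp4 at 2443 ± 652 and Igfbp5 at 1977 ± 623. Insr reached 199 ± 69.5 and Igf2r 123 ± 19.5. Another well read peak of Igf2r, at chr17:12683783-12683993, stood at 391 in db/db and 405 in db/m animals on the same scale, above Insr (244 and 145), so the order of these genes turned with the peak used. Pappa came next at 4.83 ± 3.83, ahead of Irs1 at 1.64, Igfbp6 at 0.934 and Igf2 at 0.466. The mean CPM of Pappa, Irs1, Igfbp6 and Igf2 lay below what a count of 0 allows (3 reads) in both genotypes. Their order is therefore not established. The ranges of Igfbp7, Igfbp4 and Igfbp5 overlapped over the animals, and so did those of Insr and Igf2r. The lowest Igf2r library stood at 100.1 and the highest Pappa library at 12.4, and Pappa, Irs1, Igfbp6 and Igf2 overlapped. In IP the level of the Pappa peak was 29.5 ± 26.2, with means of 40.6 in db/db and 16.2 in db/m animals. The best read Igf2r peak stood at 62.3 ± 12.1 in IP, and its range over the animals overlapped that of Pappa, while the other Igf2r peak stood at 384 in db/db and 359 in db/m animals. A peak covers part of a transcript, so these are levels of the peaks and not of whole genes.

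Between the genotypes, 2 of the 30 member peaks passed the test in IP reads (edgeR quasi-likelihood test, Benjamini-Hochberg adjusted p under 0.05 over all 9857 peaks). Over all peaks 6.45% passed. In RNA-seq reads 2 of 30 passed as well, where 11.3% of all peaks did (5.34% higher and 5.93% lower in db/db mice), and in IP 3.07% were higher and 3.38% lower. The members that passed, in both library types, were the 2 overlapping Insr peaks, and both rose in db/db mice. With an absolute log2 fold change over 1 in addition, 2 of 30 passed in IP, where 3.32% of all peaks did, and 0 in RNA-seq, where 3.95% did. At an unadjusted p under 0.05 the members numbered 4 in IP and 7 in RNA-seq, against 21.2% and 24.5% of all peaks. When IP was taken relative to RNA-seq, the measure closest to ac4C per transcript, 0 of 30 passed with edgeR and 0 with DESeq2, and 3 had an unadjusted p under 0.05. Over all peaks 0.0304% passed that test, which was 3 peaks, and 6.76% had an unadjusted p under 0.05. In no member did the values of the genotypes separate fully, while 5.77% of all peaks did so in IP and 7.89% in RNA-seq. Over the 18 well read member peaks the median log2 fold change of db/db over db/m was -0.10 in IP and -0.18 in RNA-seq, beside 0.00 in both over the 6715 peaks read as well. The 9 peaks of Igfbp5 are among these 18. Over the best read peak of each of the 9 genes, sparse peaks near a count of 0 included, the medians were 0.14 and 0.75.

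**Figure D1:**
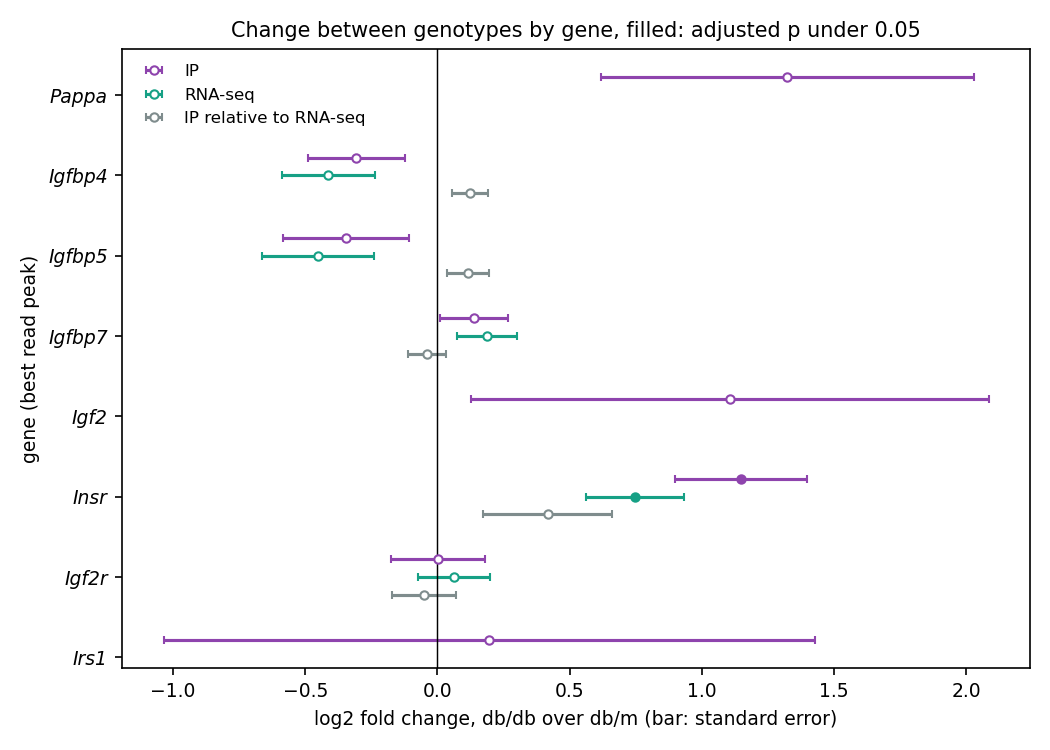
The horizontal axis gives the log2 fold change of db/db over db/m and the vertical axis 8 genes, each by its best read peak; points are fitted values from edgeR for IP, RNA-seq and IP relative to RNA-seq, and bars are standard errors. Filled points, adjusted p under 0.05, occur for Insr in IP (1.15) and RNA-seq (0.75), and bars are wide for Pappa, Igf2 and Irs1, which held few reads; no value is drawn where the mean of a genotype was below what a count of 0 allows, which leaves these 3 with IP alone and Igfbp6 out.

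Pappa, the protease, had 2 peaks, both called in the db/db list and both near the 3′ end of a long gene. The larger peak lies at chr4:65355022-65355112, 230848 bases after the RefSeq start of the gene and 2397 bases before its 3′ end. The smaller one lies at chr4:65352116-65352206, 5303 bases before the 3′ end. The peak caller gave them a fold enrichment of 8.16 and 4.76, with the FDR of the larger at 2.51e-30. The study singled out Pappa on these libraries, so its values are a description of that choice.

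In the larger Pappa peak the IP libraries of db/db animals 1 to 6 held 69, 42, 37, 10, 15 and 22 reads, and those of db/m animals 1 to 5 held 2, 4, 35, 19 and 8. The first 3 db/db animals and db/m animal 3 were high, db/m animals 1 and 2 were low, and the genotypes overlapped. Mean levels in IP were 3.74 ± 2.66 CPM (SD, n = 6) in db/db animals and 1.49 ± 1.50 CPM (SD, n = 5) in the controls. This is a log2 fold change of 1.32 (SE 0.71, 95% interval -0.06 to 2.71), which did not pass the test (edgeR adjusted p = 0.297). An exact permutation test over 462 splits of the animals, two-sided on log2(CPM + 1), gave p = 0.0887. The peak entered through the db/db peak call alone, so these tests depend on that call and decide nothing about the genotypes. With 1 animal left out the log2 fold change ran from 0.92 without db/db animal 1 (edgeR adjusted p = 0.552) to 2.08 without db/m animal 3 (edgeR adjusted p = 0.137).

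The RNA-seq libraries held 0, 3, 4, 2, 2 and 1 reads of the same peak in db/db mice and 1, 1, 1, 1 and 0 in db/m mice. A count of 0 allows up to 3 reads, so no RNA-seq library but those of db/db animals 2 and 3 reached the count that a 0 allows. The mean level was 0.601 CPM in db/db and 0.256 CPM in db/m animals, both below what a count of 0 allows in a library. No fold in RNA-seq or relative to it is therefore given here, and fitted values printed below for other settings are no estimate of one. Neither test was passed (edgeR adjusted p = 0.354 and 0.990). A difference in IP per transcript was not detectable at this depth.

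The smaller Pappa peak held 20 reads over all libraries. The IP libraries held 0, 4, 8, 0, 1 and 0 of them in db/db mice and none in the 5 db/m mice. RNA-seq gave 2 reads for db/db animal 3, 4 for db/m animal 2 and 1 for db/m animal 5. The signal thus lay in a few animals of each genotype, in IP of db/db and more in RNA-seq of db/m mice. The mean IP level in db/db mice, 0.251 CPM, was below what a count of 0 allows in a library, so no fold is given. The test was not passed in IP (edgeR adjusted p = 0.150) or RNA-seq (edgeR adjusted p = 0.484). The IP test depends on the db/db peak call, through which alone the peak entered, and decides nothing about the genotypes.

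**Figure D2:**
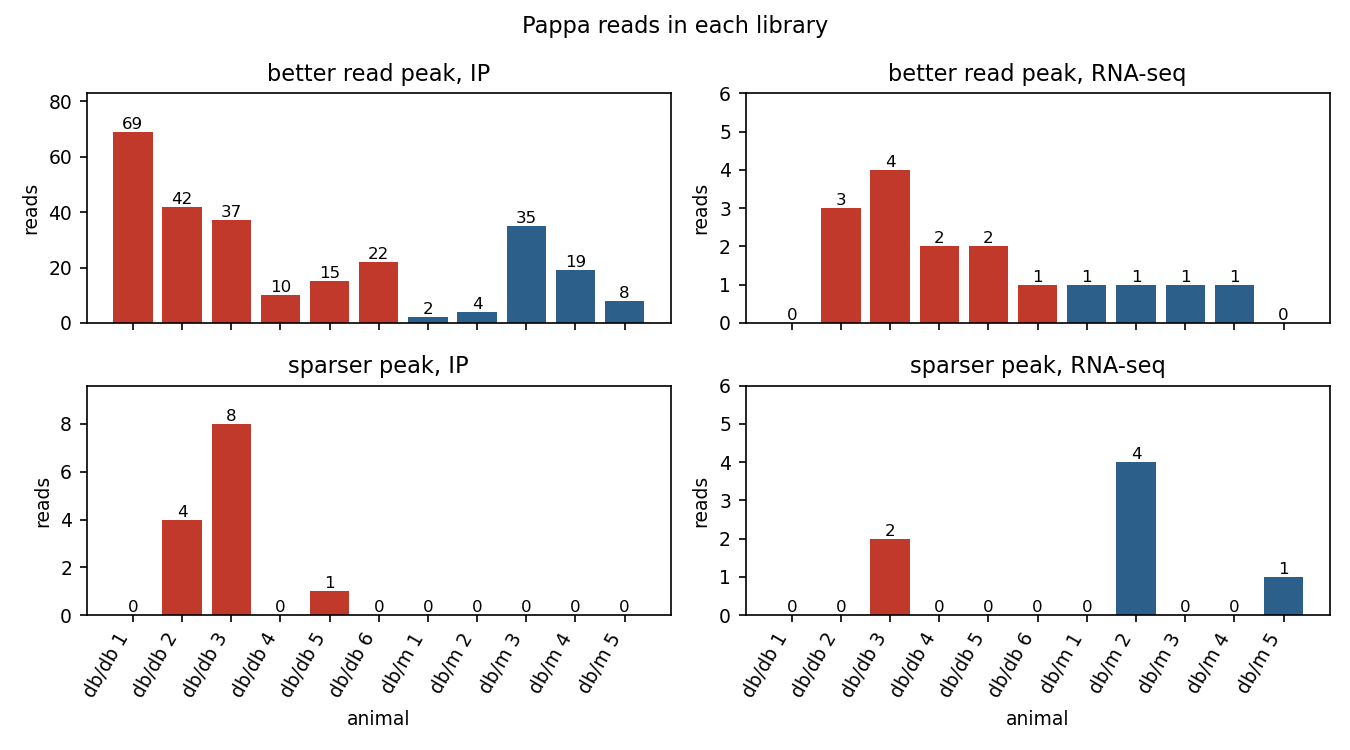
Bars give whole reads in each library for the 2 Pappa peaks, in IP (left) and RNA-seq (right), with db/db animals in red and db/m animals in blue; the vertical scales differ between the panels. In IP the larger peak runs from 10 to 69 reads in db/db and from 2 to 35 in db/m mice, and no RNA-seq library holds more than 4 reads of either peak.

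Transcripts of lung, the surfactant proteins and the club cell secretory protein, appeared in IP of 4 db/db mice. Sftpc, the most abundant, had 193, 151, 135, 45, 0 and 0 IP reads in db/db animals 1 to 6. It had at most 1 read in any IP library of db/m mice or any RNA-seq library. Of the 5 lung genes listed, 4 had a peak, Sftpb being the exception, and their IP reads summed to 386, 307, 271, 98, 2 and 2 in db/db animals and to at most 4 in db/m animals. In IP, Sftpc, Sftpa1 and Scgb1a1 passed the test with more reads in db/db mice, where 3.07% of all peaks were higher. None of the 4 passed in RNA-seq (edgeR and DESeq2, with 0 at an unadjusted p under 0.05). The IP calls rest on db/db animals 1 to 4. Without these animals none of the 3 passed (edgeR adjusted p = 0.768, 0.699 and 0.792), an outcome that this choice fixed. The 3 db/db libraries with most Pappa reads were the 3 with most lung reads. With the libraries of db/db animals 1 to 4 left out, a set chosen after seeing the data, the log2 fold change of the larger Pappa peak in IP was 0.41 (edgeR adjusted p = 0.930), from 2 db/db animals. That set leaves out the 3 db/db libraries with most Pappa reads, so a lower value was fixed in advance and says nothing about lung reads. The part of the lung transcripts in the Pappa values was not tested.

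**Figure D3:**
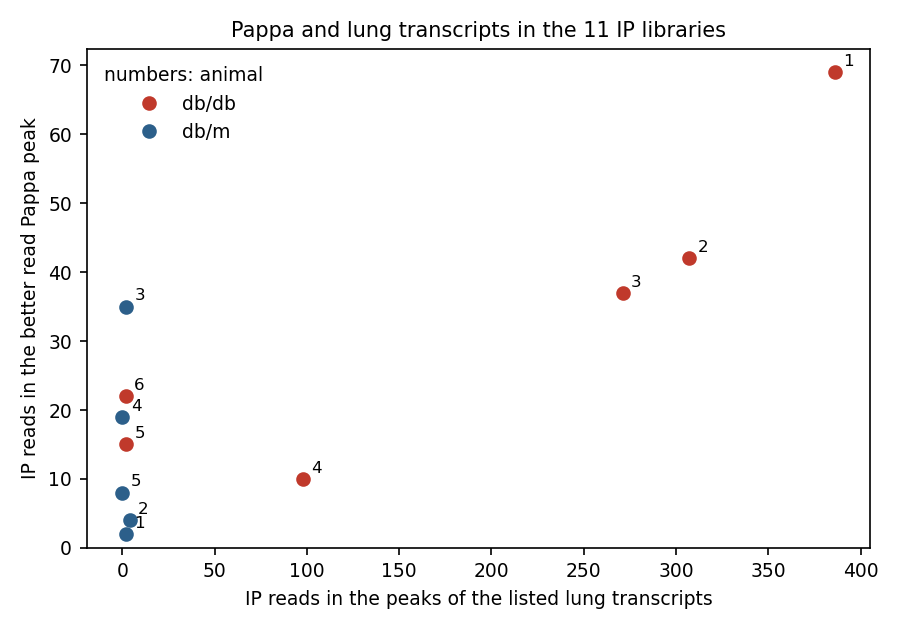
Each point is 1 of the 11 IP libraries, labelled with its animal number, with the summed reads of the lung transcripts on the horizontal axis and the reads of the larger Pappa peak on the vertical axis. Animals 1 to 3 of db/db lie at 271 to 386 lung reads and 37 to 69 Pappa reads, while db/m animal 3 has 35 Pappa reads and 2 lung reads.

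Reads of the larger Pappa peak followed those of other peaks over the 11 IP libraries to varying degree. Among 7402 peaks outside the axis with a mean of at least 10 IP reads, Spearman's rho with Pappa ran from -0.864 to 0.855. The 5 genes most like it were Tardbp (0.855) and Syncrip (0.809), which encode RNA-binding proteins, Eef2 (0.827), which encodes an elongation factor, Epb41l1 (0.827), which encodes a protein of the membrane skeleton, and Rilpl2 (0.845). None of the 5 passed the genotype test in IP. The points share library, depth and genotype, and the rho values are descriptions over 11 animals.

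The IGFBPs, which hold IGF, gave 17 of the 30 peaks. With edgeR and with DESeq2, 0 of the 17 passed the test in IP, in RNA-seq or in IP relative to RNA-seq, and 0, 4 and 2 had an unadjusted edgeR p under 0.05. The shares of all peaks under that p were 21.2% in IP, 24.5% in RNA-seq and 6.76% relative to RNA-seq. Igfbp4 and Igfbp5 encode the substrates of PAPP-A, and the product of Igfbp7 binds IGF only weakly.

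Igfbp4 had its best read peak at chr11:99051966-99052475, 180 bases before the 3′ end of the gene. In IP it stood at 1854, 1141, 1341, 1469.9, 1449.7 and 2148 CPM in db/db animals and 2255, 1169, 2003, 2359 and 1914 CPM in db/m animals. Its RNA-seq level was 1358, 771, 1024, 937, 970.2 and 1451 CPM in db/db animals and 1732, 906, 1464, 1640.4 and 1479 CPM in db/m animals. In both library types db/m animal 2 was the low one of its group and the genotypes overlapped. Igfbp4 had a log2 fold change of -0.31 in IP (SE 0.18, edgeR adjusted p = 0.361) and -0.41 in RNA-seq (SE 0.17, edgeR adjusted p = 0.147). Relative to RNA-seq the IP change was 0.12 (SE 0.07, edgeR adjusted p = 0.758). Without db/m animal 2 the RNA-seq change was -0.54 and passed the test (edgeR adjusted p = 0.0219). Without db/db animal 6 it passed as well (edgeR adjusted p = 0.0468), while in the other 9 sets with 1 animal left out it did not. Without db/db animals 1 to 4 it was -0.25 (edgeR adjusted p = 0.633). The 3 other peaks of Igfbp4 that did not overlap this one lay beyond the RefSeq end of the gene and held at most 27 reads each.

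Igfbp5 had 9 peaks, all near its 3′ end and at most 3990 bases before it. The best read one lies at chr1:72861935-72862264, 3870 bases before the 3′ end. Its IP level was 352, 552, 742, 494, 215 and 554 CPM in db/db animals and 496, 896, 546, 548 and 592 CPM in db/m animals. Its RNA-seq level was 391, 643, 855, 553, 282 and 642 CPM in db/db animals and 697, 1049.7, 704, 655 and 728 CPM in db/m animals. The db/db animals 1 and 5 were low and db/m animal 2 was high in both library types. Igfbp5 had a log2 fold change of -0.34 in IP (SE 0.24, edgeR adjusted p = 0.445) and -0.45 in RNA-seq (SE 0.21, edgeR adjusted p = 0.199). With 1 animal left out the IP value ran from -0.16 without db/db animal 5 to -0.51 without db/db animal 3, and was -0.17 without db/m animal 2. Along the gene the RNA-seq log2 fold changes of the 9 peaks ran from -0.15 to -0.45, and their ratio of IP to RNA-seq CPM from 0.622 to 0.980. The 9 peaks share reads and transcripts, so they are not separate measurements of the gene.

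Igfbp7 was read close to its transcript start, shown above, with the best read peak at chr5:77407687-77408012, 33 bases after the 5′ end of the gene. Its RNA-seq level was 1149, 1023, 1246, 1219, 1374 and 1216 CPM in db/db animals and 1236, 896, 1054, 1092 and 1005 CPM in db/m animals. In IP it averaged 1049.9 ± 111 CPM (SD, n = 6) in db/db and 955 ± 129 CPM (SD, n = 5) in db/m animals. The genotypes overlapped in both. Igfbp7 had a log2 fold change of 0.14 in IP (SE 0.13, edgeR adjusted p = 0.610) and 0.19 in RNA-seq (SE 0.11, edgeR adjusted p = 0.320), with intervals of -0.12 to 0.39 and -0.03 to 0.41.

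Igfbp6, whose product binds IGF2 in preference to IGF1, had 1 peak at chr15:102147848-102147907 with 41 reads. Of its IP reads, db/db animal 1 held 11 and db/m animal 3 held 25, and the other IP libraries held at most 1. RNA-seq held 2 reads, both in db/db animal 4. The peak rests on single libraries in each group, and it did not pass the test in IP (edgeR adjusted p = 0.751).

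Igf2, the ligand, is largely silent in adult tissues of the mouse. It had 4 peaks with 39 to 139 reads each. In the best read one, at chr7:142658557-142658796, beginning at base 9 of the transcript shown above, the IP libraries held 39, 8, 5, 29, 14 and 0 reads in db/db animals and 10, 19, 4, 6 and 1 in db/m animals. RNA-seq gave 2 reads for db/db animal 6, 1 each for db/db animal 4 and db/m animal 2, and none in the other libraries. The db/db animals 1 and 4 were high in IP, and the genotypes overlapped. The IP log2 fold change was 1.11 (SE 0.98, edgeR adjusted p = 0.581). Without db/db animal 1 it was 0.58 (edgeR adjusted p = 0.835), and over all settings run it ranged from -0.12 to 1.70.

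Insr, the insulin receptor, rose in db/db kidneys in IP and in RNA-seq reads. Its 2 peaks overlap, and the best read one lies at chr8:3152238-3152357, 1316 bases before the 3′ end of the gene. The IP libraries held 25.6, 30.4, 35.1, 44.2, 31.3 and 17.2 CPM in db/db animals and 14.6, 10.2, 13.9, 17.3 and 12.9 CPM in db/m animals. The RNA-seq libraries held 23.8, 28.8, 33.1, 40.7, 32.9 and 18.2 CPM in db/db animals and 16.4, 17.0, 18.6, 17.9 and 18.1 CPM in db/m animals. In both, db/db animal 4 was the highest, and only db/db animal 6 lay within the db/m range.

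**Figure D4:**
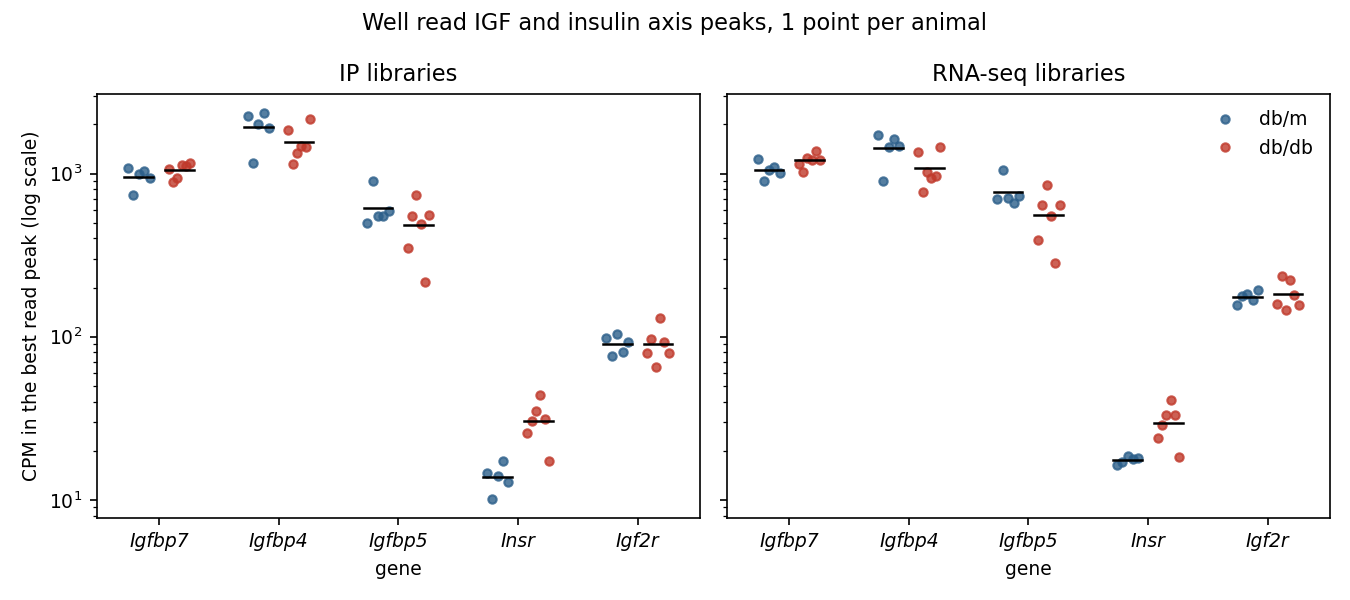
Points give the CPM of each animal in the best read peak of the 5 well read genes on a log scale, in IP (left) and RNA-seq (right), with db/m in blue and db/db in red; lines are group means. For Insr the db/db animals lie at 17.2 to 44.2 CPM in IP against 10.2 to 17.3 in db/m, while the genotypes intermix for Igfbp7, Igfbp4, Igfbp5 and Igf2r.

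The log2 fold change of Insr was 1.15 in IP (SE 0.25, edgeR adjusted p = 0.00765) and 0.75 in RNA-seq (SE 0.19, edgeR adjusted p = 0.0114). These are folds of 2.22 and 1.68. Exact permutation tests, two-sided over 462 splits, gave p = 0.00649 in each. Relative to RNA-seq the IP change was 0.42 (SE 0.24, interval -0.06 to 0.89) and did not pass the test (edgeR adjusted p = 0.772). In IP over RNA-seq per animal, the log2 ratio was 0.039 ± 0.090 (SD, n = 6) in db/db and -0.37 ± 0.27 (SD, n = 5) in db/m animals.

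The Insr calls were lost in 2 smaller sets of animals. With animals 1 to 3 of each genotype the changes were 1.26 in IP (edgeR adjusted p = 0.0830) and 0.72 in RNA-seq (edgeR adjusted p = 0.137). Without db/db animals 1 to 4, whose IP libraries held lung transcripts, they were 0.81 (edgeR adjusted p = 0.363) and 0.54 (edgeR adjusted p = 0.307). The RNA-seq libraries of those 4 animals held 0 to 3 reads of the lung list.

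Igf2r, the IGF2 and mannose 6-phosphate receptor, did not pass the test in any of its 4 peaks. The best read one, chr17:12685183-12686633, held 79.1, 96.4, 65.0, 130.3, 92.6 and 79.7 CPM in db/db animals and 97.9, 75.9, 104.5, 80.3 and 93.0 CPM in db/m animals in IP. In RNA-seq the means were 183 ± 37.6 CPM (SD, n = 6) in db/db and 175 ± 14.5 CPM (SD, n = 5) in db/m animals. The genotypes intermixed, with db/db animal 4 the highest in IP. Igf2r had a log2 fold change of 0.00 in IP (interval -0.35 to 0.35, edgeR adjusted p = 1) and 0.06 in RNA-seq (interval -0.21 to 0.33, edgeR adjusted p = 0.828).

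A further Igf2r peak lay near the transcript start shown above, at chr17:12769574-12769664. Its IP libraries held 2, 5, 3, 1, 1 and 0 reads in db/db animals and 17, 23, 18, 3 and 1 in db/m animals. The db/m animals 1 to 3 were high and the others overlapped with db/db. The db/db mean, 0.228 CPM, was below what a count of 0 allows in a library, so no fold is given, and the test was not passed (edgeR adjusted p = 0.190). This peak was called in the db/m list alone, so the IP test depends on that call and decides nothing about the genotypes. The noncoding RNA Airn runs there on the opposite strand, and the counts did not use strand, so reads of the pair cannot be told apart. The peaks of opposite strands that overlapped by at least 90% numbered 51 pairs, of which 46 had totals within 10% of each other.

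Irs1, the adaptor that couples the receptors to PI3 kinase, had 1 peak with 87 reads at chr1:82287039-82287189. The IP libraries held 2, 2, 5, 5, 28 and 2 reads in db/db animals and 4, 27, 3, 0 and 0 in db/m animals. Most of the reads thus came from 1 library of each genotype. The RNA-seq libraries held 1, 3, 1, 2, 0 and 1 reads in db/db animals, and 1 read in all in db/m animals. The log2 fold change was 0.20 in IP (SE 1.23, edgeR adjusted p = 0.968). With 1 animal left out it ran from -0.92, without db/db animal 5, to 2.08. Both RNA-seq means, 0.403 and 0.064 CPM, were below what a count of 0 allows, so no fold is given there, and the test was not passed (edgeR adjusted p = 0.182).

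The ratio of IP to RNA-seq CPM, over the 11 animals, was given for the 5 well read genes with no test, since peaks were called for a high ratio. It was 1.40 for Igfbp4, 0.903 for Insr, 0.885 for Igfbp7, 0.828 for Igfbp5 and 0.502 for Igf2r, whose other well read peak stood at similar levels in both library types. By group means the place of Insr in this order differed between the genotypes, but its change relative to RNA-seq did not pass (edgeR adjusted p = 0.772). Its log2 ratios ran from -0.082 to 0.12 in db/db and from -0.74 to -0.047 in db/m animals and overlapped. In db/m animals its mean log2 ratio, -0.37, lay below those of Igfbp7 (-0.15) and Igfbp5 (-0.33). In db/db animals it lay above them, at 0.039 against -0.20 and -0.22. Both library types are scaled to the same total of reads in peaks, so a ratio under 1 is low against other peaks and is not a lack of enrichment. The deposited fold enrichment of the same peaks was 5.89 for Igfbp4, 4.9 for Igfbp7, 3.47 for Igfbp5, 3.05 for Insr and 1.76 for Igf2r. The median log2 ratio of these 5 peaks was -0.18, beside 0.09 over 6706 peaks of all genes read as well.

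Genes downstream of the receptors were counted from a list of 77, of which 30 had a peak and 21 at least 300 reads. In IP 2 rose in db/db mice and none fell, and in RNA-seq 3 rose and none fell, by the best read peak of each gene. The shares over all peaks were 3.07% in IP and 5.34% in RNA-seq. The median log2 fold change of the 30 was 0.13 in IP and 0.27 in RNA-seq, against 0.00 and -0.01 over all peaks. With edgeR and with DESeq2, 0 of the 30 passed the test relative to RNA-seq, and 0 had an unadjusted p under 0.05.

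Among FOXO factors and their targets, 2 of 4 genes rose in both library types. Pck1, which encodes the gluconeogenic enzyme PEPCK and is repressed by insulin, ranged from 2755 to 8415 CPM in IP (median 5085) in db/db animals and from 901 to 1807 CPM (median 1666) in db/m animals. The genotypes did not overlap. Its log2 fold change was 1.83 in IP (SE 0.28, edgeR adjusted p = 0.000365) and 1.85 in RNA-seq (SE 0.28, edgeR adjusted p = 0.000154). G6pc, which encodes glucose 6-phosphatase and releases glucose, changed by 0.80 in IP (edgeR adjusted p = 0.0475) and 0.86 in RNA-seq (edgeR adjusted p = 0.0210). Its IP values overlapped, with 266 to 914 CPM in db/db and 271 to 411 CPM in db/m animals. Pck1 passed in each of 11 sets with 1 animal left out, and G6pc in 3 of 11 in IP and in 10 of 11 in RNA-seq, where it missed without db/m animal 5 (edgeR adjusted p = 0.0537). Without db/db animals 1 to 4, Pck1 changed by 1.80 (edgeR adjusted p = 0.00961) and G6pc by 0.94 (edgeR adjusted p = 0.0333) in IP. With animals 1 to 3 of each genotype Pck1 passed in IP (edgeR adjusted p = 0.0277) and RNA-seq (edgeR adjusted p = 0.00751), and G6pc in neither (edgeR adjusted p = 0.216 and 0.0809).

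Of 9 adaptor and MAPK genes, 1 rose in RNA-seq, where 5.34% of all peaks did. It was Map2k1, which encodes the kinase MEK1. It changed by 0.66 in RNA-seq (SE 0.17, edgeR adjusted p = 0.0142) and by 0.37 in IP (edgeR adjusted p = 0.321), and the RNA-seq call was lost without db/m animal 4 (edgeR adjusted p = 0.0518), without db/db animals 1 to 4 (edgeR adjusted p = 0.328) and with animals 1 to 3 of each genotype (edgeR adjusted p = 0.196). With edgeR none passed in IP or RNA-seq among 6 PI3K and AKT genes, 3 mTOR genes, 2 genes of GSK3 and glycogen, 4 regulators of the receptors, among them the insulin receptor phosphatase gene Ptpn1 and the adaptor gene Sh2b1, and 2 of glucose uptake, of which 5 had an unadjusted p under 0.05 in IP and 6 in RNA-seq, where 21.2% and 24.5% of all peaks did. DESeq2 called 2 of these in IP and 0 in RNA-seq. Outside the member rule, 17 more genes of the axis were listed and 4 had a peak. In RNA-seq edgeR called 0 of the 4 and DESeq2 called 1. In IP 1 rose with edgeR, where 3.07% of all peaks did. It was Ctsd, which encodes the lysosomal protease cathepsin D and changed by 0.46 (edgeR adjusted p = 0.0479), and by 0.38 in RNA-seq (edgeR adjusted p = 0.0685). Ctsd was named after its values were seen, and its call held in 1 of 11 sets with 1 animal left out.

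**Figure D5:**
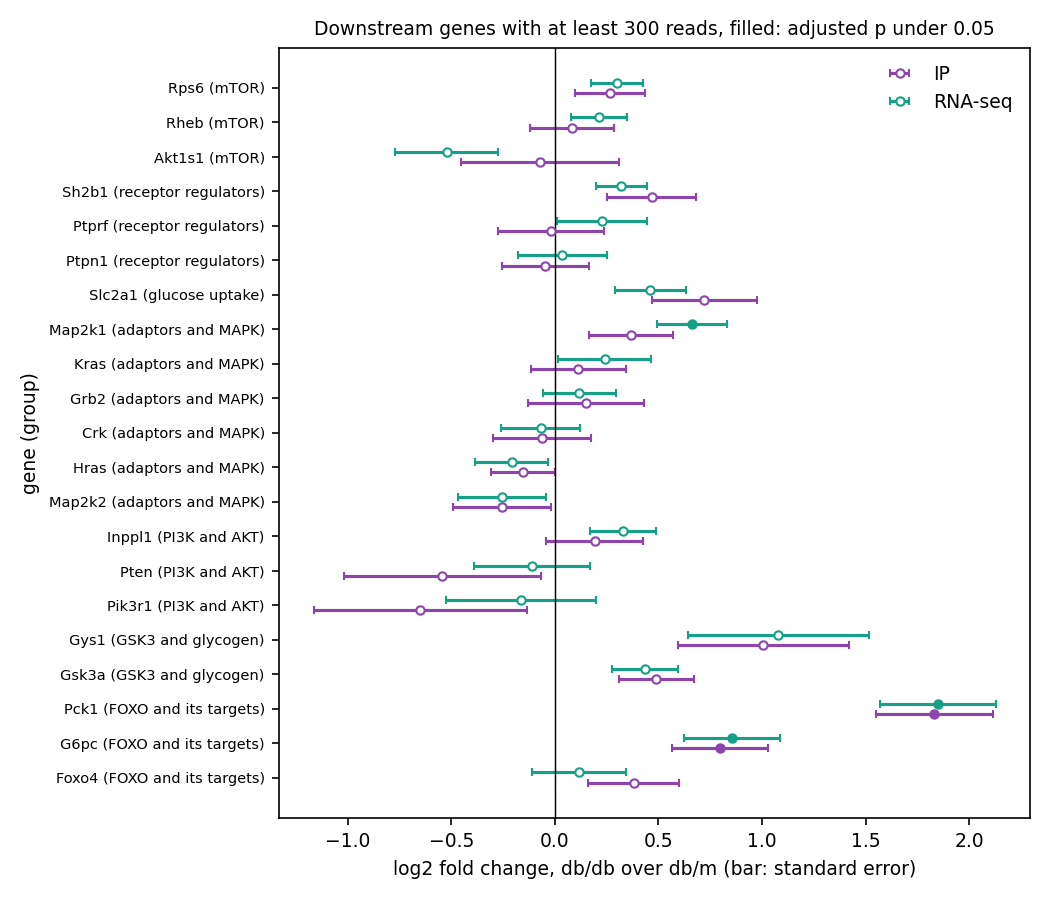
The horizontal axis gives the log2 fold change of db/db over db/m and the vertical axis the 21 downstream genes with at least 300 reads, with their group; points are IP and RNA-seq values from edgeR and bars are standard errors. Filled points, adjusted p under 0.05, are those of Pck1 and G6pc in both library types and of Map2k1 in RNA-seq.

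The labelled tissue was read against markers of kidney cells. Over all peaks 3.38% were lower in db/db mice in IP and 5.93% in RNA-seq, and 5.34% were higher in RNA-seq. Of 9 proximal tubule markers 7 had a peak, and 3 fell in IP in db/db mice and 4 in RNA-seq, with none higher. The IP call of Slc34a1, a phosphate carrier, held in 5 of 11 sets with 1 animal left out. The most abundant, Slc27a2, changed by -0.48 in RNA-seq (edgeR adjusted p = 0.0117), and Lrp2, which encodes megalin, by -0.90 (edgeR adjusted p = 0.00330). The summed RNA-seq level of the list was 5838 ± 714 CPM (SD, n = 6) in db/db and 8339 ± 311 CPM (SD, n = 5) in db/m animals. Slc27a2 alone held 4185 and 5836 CPM of these, so it set most of the sum. Slc5a2, Slc13a3 and Aqp1 passed in neither library type (edgeR adjusted p = 0.654, 0.252 and 0.500 in RNA-seq).

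Of 7 endothelial markers 4 had a peak, and the most abundant, Plvap, rose by 0.97 in RNA-seq (edgeR adjusted p = 0.000183). Their RNA-seq levels summed to 603 ± 109 CPM (SD, n = 6) in db/db and 337 ± 33.4 CPM (SD, n = 5) in db/m animals, and Plvap alone held 563 and 288 CPM of these. Kdr, an endothelial receptor of VEGF and the next most abundant, had a log2 fold change of the other sign, -0.40 in RNA-seq (edgeR adjusted p = 0.131) and -0.27 in IP (edgeR adjusted p = 0.562). Flt1 had 0.33 in RNA-seq (edgeR adjusted p = 0.436), and Emcn held 26 reads over all libraries, so 1 gene of the list set its sum. Of 5 collecting duct markers 2 had a peak and Aqp2, the water channel, rose by 1.38 in RNA-seq (edgeR adjusted p = 7.82e-05). The other, Aqp3, changed by 0.47 (edgeR adjusted p = 0.0611), and DESeq2 called 2 of the 2 in RNA-seq. Of 6 podocyte markers 4 had a peak and 1, Synpo, rose in RNA-seq (edgeR adjusted p = 0.0449), a call that held in 3 of 11 sets with 1 animal left out. Beside these edgeR calls of 1 endothelial, 1 collecting duct and 1 podocyte marker, 5.34% of all peaks rose in RNA-seq. With edgeR and DESeq2 no marker passed the test in IP or RNA-seq among 2 of the thick ascending limb, 1 of intercalated cells, 3 of stroma and vessel wall and 1 of leukocytes, and 1 of these had an unadjusted p under 0.05, in RNA-seq. Adipocyte and adrenal markers were near 0, with at most 2.42 CPM in the sum of a list. No marker of the distal convoluted tubule had a peak. Without db/db animals 1 to 4, Aqp2 changed by 1.08 in RNA-seq and passed (edgeR adjusted p = 0.0314). In the same set Plvap changed by 0.72 (edgeR adjusted p = 0.0644), Lrp2 by -0.79 (edgeR adjusted p = 0.223) and Slc27a2 by -0.54 (edgeR adjusted p = 0.0978) in RNA-seq. With animals 1 to 3 of each genotype Slc27a2 missed in RNA-seq (edgeR adjusted p = 0.328). Plvap (edgeR adjusted p = 0.00379), Lrp2 (edgeR adjusted p = 0.00878) and Aqp2 (edgeR adjusted p = 0.00663) passed there. The part of these lists in the Insr result was not tested.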

How the data were processed

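Each of 6 db/db and 5 db/m kidneys was measured by IP and by RNA-seq, and libraries were assigned from the sample titles. Alignment and peak calling, once per genotype, were done by the authors, who deposited 1 table. Its counts are whole reads per peak and library, made by the authors without normalization. The deposited fold enrichment of each peak is a linear ratio. The deposited FDR of each peak is an adjusted p-value of the peak call. The further columns of change between the genotypes hold the authors' own comparison and were not used. The submitters' processing notes name the build GRCm38. The aligner, peak caller and counting tool are not given in the sources used here. Starts count from 0, since adding 1 matched a RefSeq gene start in 103 peaks and the start as given in 8, and are printed from 1. PCR copies were not separated, so limits from a count of 0, 3 reads, cover counting error only. RNA-seq libraries held fewer reads than IP libraries, which limits sparse peaks.

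Tests of the counts used edgeR 4.0.16 in R 4.3.3 (TMM, glmQLFit and glmQLFTest) over all 9857 peaks with no filter, with genotype as the term. IP relative to RNA-seq was the interaction of library type and genotype with a term for the animal, and that fit put no weight on the spread of a single peak. Adjusted p-values follow Benjamini-Hochberg with a threshold of 0.05. Standard errors of edgeR values were worked back from the log2 fold change and the test statistic. The 95% intervals used a normal approximation, so in IP and in RNA-seq they are somewhat narrower than the edgeR test implies. Animals are replicates, and their numbers did not pair the genotypes. Tests on simulated data with 200 changed peaks recovered 175 in IP, 156 in RNA-seq and 136 in the relative fit. False calls numbered 2, 10 and 3 among 9857 peaks. The planted changes were larger than any fold of a well read member, and the simulated spread was fixed for each measure. The recovery therefore does not give the power for smaller changes. Among better read changed peaks it was 147 of 147 in IP, 111 of 111 in RNA-seq and 134 of 135 in the relative fit. Misses thus lay almost all in sparser peaks. Exact permutation tests used log2(CPM + 1) after TMM in Python 3.11.15. Alternatives were DESeq2 1.42.0, library sizes without TMM, a mean of at least 10 reads, a fold limit, 1 peak per overlapping group, animals left out, a block, and a pseudocount of 0.25. Sequences and gene positions come from RefSeq tables of GRCm38.p6, in which Pappa has no promoter entry used here.

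The members and lists were chosen with earlier results of these data known. Named in full were both Pappa peaks, members whose best read peak passed, the best read member of each role, up to 8 passing downstream genes, and the 5 genes most like Pappa in IP. Igfbp5, Igfbp6, Igfbp7 and the sparse Igf2r peak complete the account of the members.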

Additional observations from a re-analysis of the deposited data

Results flagged for a closer look

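The best read peak of each member gene and the smaller Pappa peak were checked in each group of libraries. In 12 of the 40 groups 1 library stood far from the others of its group (Dixon's test at 95%), where chance gives about 2. In 10 of them the peak was sparse, so a few reads set the gap. For Pappa, db/m animal 5 held 0 CPM of the larger peak in RNA-seq while the other 4 held 1 read each. In the smaller Pappa peak, db/db animal 3 had 0.571 CPM (2 reads) and db/m animal 2 had 1.26 CPM (4 reads), both in RNA-seq. For Igfbp6, db/db animal 1 had 1.33 CPM and db/m animal 3 had 2.75 CPM in IP, and db/db animal 4 had 0.627 CPM in RNA-seq. For Irs1, db/db animal 5 had 3.13 CPM and db/m animal 2 had 2.86 CPM in IP, and db/m animal 1 had 0.321 CPM in RNA-seq. For Igf2, db/m animal 2 had 0.315 CPM (1 read) in RNA-seq. The Igfbp5 peak is well read, and there db/m animal 2 stood above the rest of its group in IP, at 896 CPM, and in RNA-seq, at 1050 CPM.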

How the results depend on the processing

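Of the 30 member peaks, 2 passed the test in IP and 2 in RNA-seq, all of Insr. With 1 peak per overlapping group 1 passed in each, and with animals 1 to 3 of each genotype, or without db/db animals 1 to 4 (chosen after seeing the data), 0 did. A log2 fold limit of 1 left 2 in IP and 0 in RNA-seq. With 1 animal left out 2 passed in IP and 2 to 4 in RNA-seq, with Igfbp4 added. Under a replicate block across the genotypes, whose numbers did not pair the samples, 10 passed in RNA-seq and 2 in IP. Relative to RNA-seq 0 passed in every setting. Over all peaks the 636 IP calls became 979 with DESeq2, 370 with 1 peak per group, 218 with animals 1 to 3 and 176 without db/db animals 1 to 4, and the 1111 RNA-seq calls became 639 with 1 peak per group, 428 with animals 1 to 3, 342 without db/db animals 1 to 4 and 1732 with the block. Relative calls over all peaks, 3, ran from 0 to 14.

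Directions of sparse or flat peaks turned, and fitted values of peaks near a count of 0 are no estimate of a fold. With animals 1 to 3 the log2 fold change was -0.18 for Igf2r and -1.70 for Irs1 in IP, -1.92 for Igf2 in RNA-seq and 3.32 for Igf2 relative to RNA-seq. Without db/db animals 1 to 4 it was -0.12 for Igf2 and -0.068 for Igf2r in IP, -0.060 for Igf2r in RNA-seq, and -0.014 for Igfbp5 and -0.18 for Pappa relative to RNA-seq. With the block it was 0.048 for Igfbp6 in IP and -0.029 for Igf2 in RNA-seq. Relative to RNA-seq Igf2 gave 0.56 with DESeq2 and 0.066 with no replicate block. With 1 animal left out, the range crossed 0 in IP for Igf2r (-0.13 to 0.086), Irs1 (-0.92 to 2.08) and Igfbp6 (-3.31 to 2.74), in RNA-seq for Igf2r (-0.020 to 0.13), Igf2 (-0.047 to 2.30) and the smaller Pappa peak (-3.19 to 0.23), and relative to RNA-seq for the larger Pappa peak (-0.35 to 0.77), Igf2r (-0.11 to 0.019) and Igf2 (-1.77 to 1.33). The cause was not tested.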
